A study of Mus musculus and Homo sapiens with 32 samples.

Results

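The E14 peak list was set against the C57BL/6 wild-type peak list, the pair of m6A-CT maps in this series that both come from ordinary mouse embryonic stem cells. A peak is a stretch of the genome where the antibody-directed library held more reads than the caller's background. Membership followed from the lists alone: every peak of either list is a member, 8052 from E14 and 20055 from wild-type, which together make 28107 of the 140519 peaks in the 8 lists of the series. A peak was scored as found when it shared at least 1 bp (mm9) with the other list, counting only the exon blocks of the wild-type peaks. The measures compared were the genes under the peaks, peak length and the fold enrichment deposited by the authors.

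E14 is an established line of mouse embryonic stem cells with no modification named in the labels. The wild-type cells are C57BL/6 mouse embryonic stem cells, the unmodified counterpart of a Mettl3-/- line. Each had 2 m6A-CT and 2 input libraries, 8 of the 32 libraries of the series. The E14 libraries, labelled 100K for the nuclei used, had a brief lysis in Triton X-100 and an anti-m6A antibody from Synaptic Systems, and their list has the layout of MACS2. Wild-type libraries used an antibody from MilliporeSigma, and MeTPeak made their list. The number of wild-type nuclei and their lysis are not given in the sources used here, nor is whether libraries of a line came from separate cultures. All E14 peaks have -log10 q of at least 10, while the median log10 FDR of wild-type peaks was -4.88, so the lists differ in strictness too. Strain, antibody, caller and strictness change together between the lists, so their parts in any difference cannot be told apart. Each line has 1 deposited list without values per replicate, so no test between the lines was possible. Shares carry Wilson 95% intervals and medians order-statistic 95% intervals. These cover counting error alone, and peaks of 1 transcript are not independent.

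N6-methyladenosine (m6A) is laid down on nascent RNA by the METTL3 and METTL14 complex. In mammalian messenger RNA it is known to gather in long internal exons and around the stop codon into the 3′ end, and YTH-domain proteins read it. In mouse embryonic stem cells it is known for marking transcripts of the pluripotency network, many of which turn over faster for it. In m6A-CT the bound antibody recruits a protein A/G-Tn5 transposase that cuts RNA paired with cDNA inside permeable nuclei, so reads gather near marked sites. MACS2 reports unbroken genome intervals without strand. MeTPeak works along joined exons, so 1 of its peaks can run over many exon blocks.

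Both lists carried peaks on genes that define the cell type. Among the 12 stem cell markers examined, 11 had a position in the exon blocks of the C57BL/6 files, 9 had a wild-type peak and 8 of those had an E14 peak too. The 8 were Nanog, Sox2, Klf4, Esrrb, Zfp42, Tfcp2l1, Tdgf1 and Lin28a. Dppa4 had a wild-type peak alone, and Pou5f1 and Dppa5a had no wild-type peak and no E14 peak on their listed blocks, which for Pou5f1 come to 250 bp. These blocks are regions called in the C57BL/6 cells and not whole transcripts. An E14 peak on any other exon carries no gene name, so throughout a gene without an E14 peak is one with none on its listed blocks. Of 27 genes of feeder fibroblasts and extracellular matrix, 11 had a position and 3 had a wild-type peak, among them Fn1 and Cald1, which also carried E14 peaks. The fibroblast collagens Col1a1, Col1a2 and Col3a1 had no position in these blocks. In bulk lists, fewer cells with a transcript and less of it per cell cannot be told apart.

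The lists overlapped unequally. Of the E14 peaks, 4975 (61.8%, 95% interval 60.7 to 62.8) were found in wild-type. Of the wild-type peaks, 2389 (11.9%, 11.5 to 12.4) were found in E14. The found wild-type peaks were long, however, and held 40.7% of all exonic bp in the wild-type list. Strict lists moved these shares both ways. With wild-type peaks of log10 FDR at most -5, 32.7% of E14 peaks were found, and with E14 peaks of -log10 q at least 20, 5.02% of wild-type peaks were, whereas of wild-type peaks of at least 5-fold 30.6% were found and of the 8052 of highest fold 26.7%. Few decisions lay near the limit of 1 bp. Of the found E14 peaks, 118 (2.37%) shared under 50 bp with any single wild-type peak, and 40 of the E14 peaks not found (1.30%) lay within 100 bp of a wild-type exon block.

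Most E14 peaks without a wild-type partner lay outside the exons that the C57BL/6 files list. Those files hold exon blocks for 11080 genes, taken from the wild-type list, the Mettl3 KO list and a table of regions called with exomePeak2. Of the E14 peaks, 5306 (65.9%) met such a block, and 4975 of these (93.8%, 93.1 to 94.4) were found. The wild-type peaks are part of these blocks, so every found peak is on one by construction and the share of 93.8% was bound to be high. The 3077 peaks not found split into 2746 (89.2%) on no listed exon, 193 (6.27%) on a listed exon of a gene with a wild-type peak elsewhere, and 138 (4.49%) in genes with no wild-type peak. The 2746 can lie in introns, between genes or on exons where no C57BL/6 region was called, and these were not told apart. When the whole wild-type span was counted, introns included, the share rose only to 65.5%, and 296 of the peaks not found (9.62%) lay inside such a span.

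Wild-type peaks without an E14 partner lay mainly in genes with no E14 peak. Of 17666 such peaks, 14209 (80.4%) were in genes without an E14 peak and 3457 (19.6%) in genes that had one. Within genes that had an E14 peak, 40.3% (39.0 to 41.5) of wild-type peaks were found.

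Fold enrichment and overlap ran in opposite directions in the 2 lists. The deposited fold is a ratio to each caller's own background and was read only within a list. Wild-type peaks that were found had a median of 11.4-fold (95% interval 11 to 11.7), against 3.5-fold for those not found. E14 peaks that were found had a median of 5.52-fold (5.44 to 5.66), against 7.48-fold (7.28 to 7.48) for those not found. With an overlap of 50% of both peaks required, the E14 order turned, at a ratio of found to not found medians of 1.09. By deciles of fold, the found share of wild-type peaks climbed from 0.698% in the lowest decile to 25.4% in the next to highest and 65.6% in the highest. For E14 peaks it went from 78.5% in the lowest decile to 46.5% in the next to highest and 21.2% in the highest. On listed exons alone the E14 share lay between 90.2% and 97.2% in every decile, a range held high by the way those blocks are defined, and the ratio of found to not found medians was 0.872 in place of 0.738.

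**Figure D1:**
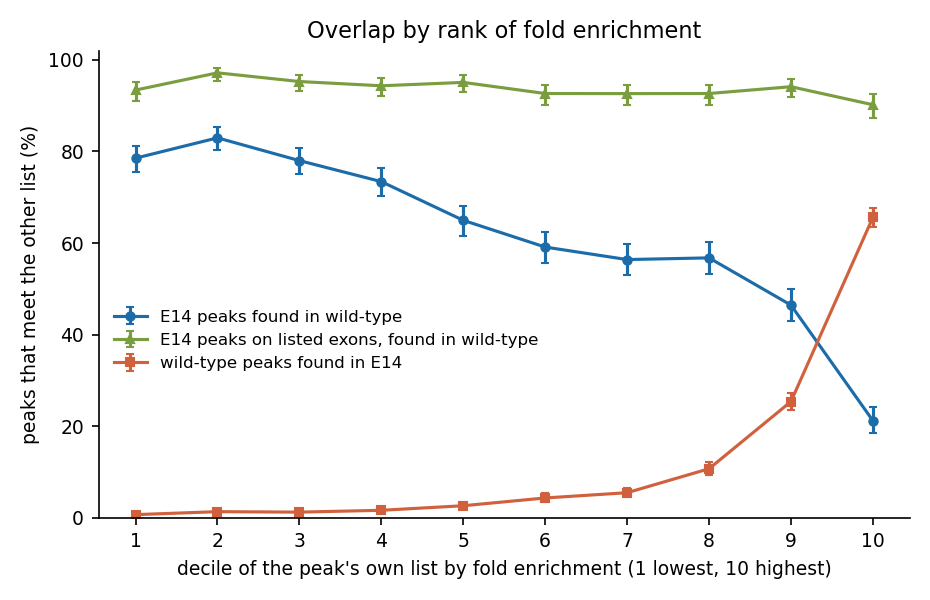
Share of peaks that met the other list (y axis, %) by decile of fold enrichment within the peak's own list (x axis, 1 lowest to 10 highest), with Wilson 95% intervals as bars. The wild-type line climbs to 65.6%, the line for all E14 peaks falls to 21.2%, and the line for E14 peaks on listed exons, blocks that include the wild-type peaks, is at or above 90.2%.

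The strongest peaks of each list differed likewise. Of the 100 wild-type peaks of highest fold, 97 were found in E14, and their median length was 5332 bp. Of the 100 E14 peaks of highest fold, 5 were found, 8 lay on a listed exon, and 53 were exactly 100 bp long, the shortest length in the list. All 100 of these E14 peaks recurred in the E14 list labelled 25K and in the list of expanded potential stem cells (EPSC), which the labels give as E14 cells too, and 98 in the E14 list labelled 5K. In the list of CF1 mouse embryonic fibroblasts (MEF), 58 recurred. These 4 lists share the antibody and the list layout of the E14 100K list.

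Many of the strongest E14 peaks sat close together. The 3 densest stretches of up to 1 Mb were picked after their positions had been seen. On chromosome 16, from 57167248 to 57642837 (mm9), 12 of the 100 lay within 475.6 kb. That stretch held 29 E14 peaks with a median of 21.0-fold and no wild-type peak. On chromosome 15, from 85501981 to 86025754, 9 of the 100 lay within 523.8 kb, among 28 E14 peaks. That stretch covers Celsr1 and Gramd4, and 11 of its E14 peaks were found. On chromosome 5, from 147083330 to 147266525, 6 of the 100 lay within 183.2 kb, and 1 of 16 E14 peaks there was found, in a stretch that holds Wasf3 and Cdk8. Of these 12, 9 and 6 peaks, 8, 5 and 2 were also in the MEF list.

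Found peaks were the longer ones in both lists. Found E14 peaks had a median length of 269 bp (262 to 277), against 181 bp (180 to 181) for those not found. Found wild-type peaks had a median exonic length of 1927 bp (1843 to 1993), against 250 bp (250 to 250). A longer peak offers more positions for an overlap of 1 bp, and length and fold went together among wild-type peaks (Spearman correlation 0.72 across 20055 peaks, a description). Fold also separated wild-type peaks within broad classes of length, inside which length was not matched. Up to 300 bp long, 1.37% of the 9410 peaks under 5-fold were found and 17 of the 36 peaks of at least 10-fold (47.2%, 32.0 to 63.0). Above 1000 bp, the shares were 9.88% of 425 and 67.6% of 1823.

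**Figure D2:**
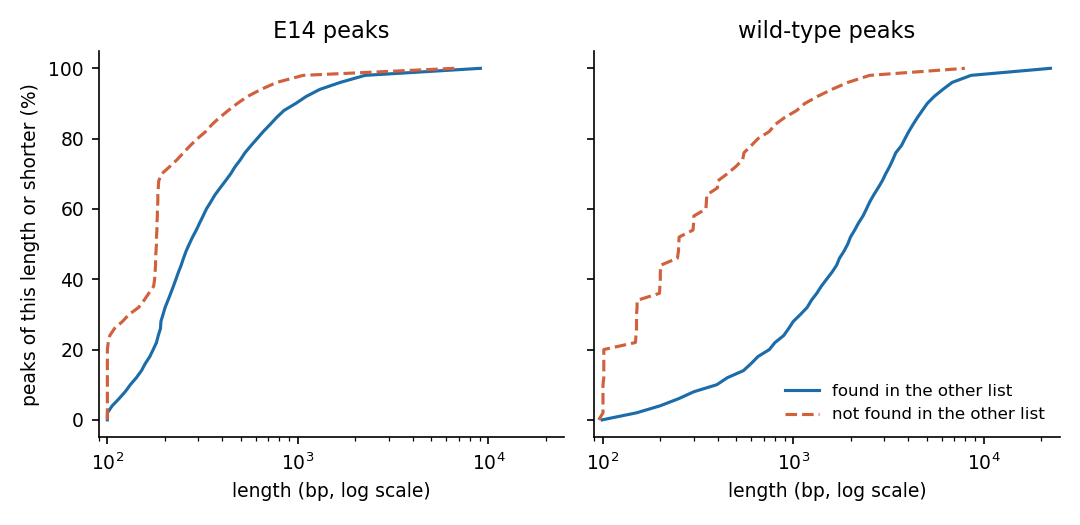
Cumulative share of peaks (y axis, %) up to a given length in bp (x axis, log scale), for E14 peaks at left and wild-type exonic lengths at right. Solid lines are peaks found in the other list and dashed lines those not found. The dashed E14 line steps up at 100 bp and near 180 bp, and the wild-type lines lie far apart, with medians of 1927 and 250 bp.

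The lengths of E14 peaks not found gathered at a pair of values. Exactly 100 bp was the length of 21.9% of peaks not found and 2.51% of those found. Another 29.7% of peaks not found lay within 5 bp of their median, at 176 to 186 bp, a band chosen after the lengths had been seen, against 4.40% of those found. Of the 799 peaks of 100 bp, 125 were found (15.6%), as were 219 of the 1133 in the band (19.3%). Among the 6120 peaks of any other length, 4631 were found (75.7%, 74.6 to 76.7). Only 18.9% of the 100 bp peaks and 28.8% of the band lay on a listed exon, against 78.9% of the others.

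Found pairs mostly joined a short E14 peak to a long wild-type peak. The 5150 overlapping pairs joined E14 peaks of median length 273 bp to wild-type peaks of median exonic length 3381 bp, and in 42.0% of pairs the E14 peak lay wholly inside the exon blocks. Of the found wild-type peaks, 1471 met 1 E14 peak, 918 met more and 61 met 10 or more. The highest count was on Macf1, which encodes a giant linker of microtubules and actin. Its single wild-type peak of 94 exon blocks and 22345 bp carried 56 E14 peaks. Fn1, which encodes fibronectin, followed with 33 on a peak of 45 blocks, then the basement membrane gene Hspg2 with 29 on 92 blocks. The median found wild-type peak had 30.0% of its exonic bp covered by E14 peaks (quartiles 14.6% and 53.9%). Spearman correlation between the folds of the 2 lists was -0.06 over the 5150 pairs, which share peaks and so are not independent. Over the 1906 genes with a peak in both lists, the correlation between the highest folds was 0.23. Requiring an overlap of 50% of both peaks left 4.57% of E14 and 1.85% of wild-type peaks found.

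Within wild-type peaks of several exon blocks, E14 peaks covered long blocks more fully and, among blocks up to 1000 bp, the 3′-most ones most. In the 1727 found peaks of that kind, the 3′-most block was met in 1193 (69.1%), the 5′-most block in 241 (14.0%) and 2746 of 14391 internal blocks (19.1%) were met. The longest block was met in 1342 of the 1727 (77.7%). Each of these peaks has at least 1 met block because it was found, which raises these shares and the covered shares below. Since long blocks are easier to meet, the covered share of bp is the fairer measure. E14 peaks covered 24.0% of the bp in blocks over 150 and up to 400 bp, 38.7% up to 1000 bp and 45.0% above. In the shortest of these classes, the covered share was 11.8% in 5′-most, 23.8% in internal and 43.7% in 3′-most blocks. Above 1000 bp, internal blocks were covered most, at 53.1%, against 43.3% for 3′-most blocks. Along whole wild-type peaks over 1000 bp, the 4254 E14 summits that could be placed were spread more evenly, with 16.1% in the 5′ quintile of the length, 22.4% in the quintile next to the 3′ end and 18.5% in the 3′ quintile.

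**Figure D3:**
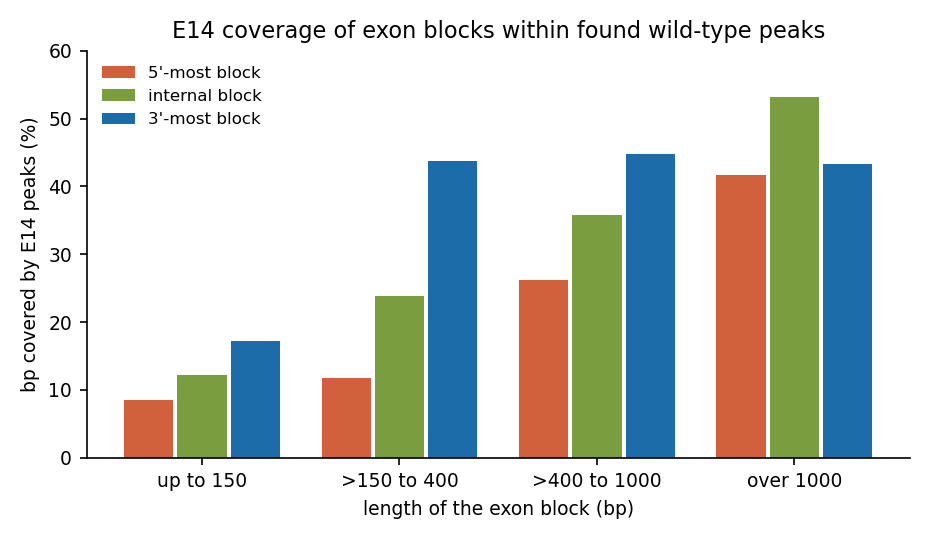
Share of bp covered by E14 peaks (y axis, %) in exon blocks of found wild-type peaks with several blocks, by block length in bp (x axis) and place in the peak (bar colour). Coverage rises with block length from 8.57% to 41.8% in 5′-most and from 12.2% to 53.1% in internal blocks, while 3′-most blocks level off near 43.7% above 150 bp.

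At the level of genes the lists overlapped unequally too. Of the 11080 genes with a listed exon, 2030 (18.3%) had an E14 peak and 5835 (52.7%) a wild-type peak. A peak in both lists was seen for 1906 genes, which is 93.9% (92.8 to 94.9) of the E14 genes and 32.7% (31.5 to 33.9) of the wild-type genes. The first share is raised by construction, because an E14 peak has a gene only where it meets a block of the C57BL/6 files, wild-type peaks included. In 1858 of the 1906 an E14 peak met a wild-type peak. E14 alone had a peak in 124 genes and wild-type alone in 3929. When peaks were named from the MeTPeak lists alone, 34 genes had an E14 peak alone, and with wild-type peaks of log10 FDR at most -5 there were 1175, and 855 with both.

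Genes with both peaks carried more wild-type signal. Their median exonic length under wild-type peaks was 3310.5 bp, against 1541 bp for genes with a wild-type peak alone, and their highest wild-type fold had a median of 12.7 against 5.5. A gene takes an E14 peak only on its listed blocks, which include its wild-type peaks, so more wild-type bp offer more room for one. Listed blocks had a median of 4575.5 bp in genes with both peaks and 2744 bp with wild-type alone. The shares and the correlation below were not matched for this. By quintiles of exonic length under wild-type peaks, the share of genes with an E14 peak was 8.14% in the lowest and 71.1% in the highest. By quintiles of highest fold it was 5.57% and 77.5%. By input level, in RPM (reads scaled to library size) per kb of listed region, it moved less, from 23.8% in the lowest quintile to 41.3% in the highest. The number of E14 peaks in a gene followed the exonic length under wild-type peaks (Spearman correlation 0.52 across 1906 genes, a description), and 73 genes with 10 or more E14 peaks held 22.1% of E14 peaks on listed exons.

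Among genes with both peaks, Celsr1 headed the E14 order and ranked 3 by wild-type fold. Celsr1 encodes an adhesion receptor of planar cell polarity. Its single wild-type peak of 82.2-fold covered 10650 bp, and all 10 of its E14 peaks met it, the highest at 240.1-fold over 1520 bp (chromosome 15, 85729582 to 85731101, mm9). That peak lies in the dense stretch of chromosome 15 described above. Fbxo30, an F-box gene, had 3 E14 peaks of up to 152.3-fold that met 1 wild-type peak of 35.7-fold. In Gramd4 and Arhgap21 the strongest E14 peak had no wild-type partner. The 183.5-fold peak of Gramd4 was 105 bp long, while its other E14 peak, of 6.57-fold, met a wild-type peak of 6-fold. The 143.8-fold peak of Arhgap21, a GTPase-activating gene, lay outside the wild-type blocks, and the 4 found ones ranged from 3.13- to 6.91-fold. The zinc finger gene Zfp980 had E14 peaks of 59.4-fold and 11.3-fold on 1 wild-type peak of 2245 bp and 29.8-fold.

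Ordered by wild-type fold, the other leading genes were spread over the E14 order, from rank 50 for Mga to 1564 for Adnp of 2030 genes. Nufip2 held the highest wild-type peak at 104-fold, and its 4 E14 peaks, 6388 bp in all, reached 13.1-fold. Zbed6, an intronless transcription factor gene, had 1 peak in each list over nearly the same stretch, 4957 bp at 86.5-fold in wild-type and 4601 bp at 7.57-fold in E14. Mga, a MAX-binding repressor gene, had 16 E14 peaks of up to 18.0-fold, all on 1 wild-type peak of 81.7-fold. Klf9 had 77-fold in wild-type and E14 peaks of 16.9- and 2.86-fold. Grik3 and Adnp, at 74- and 70-fold, reached 5.46- and 4.63-fold in E14. All but 1 of the E14 peaks of these 6 genes were found; a peak of Adnp was not.

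Pluripotency genes shared peaks often, at modest E14 fold. Of 32 naive pluripotency genes, 28 had a position, 25 a wild-type peak and 20 of those an E14 peak (80.0%, 60.9 to 91.1, against 32.7% of all genes). Their exonic length under wild-type peaks had a median of 2595 bp and their highest wild-type fold a median of 12. These medians fall in quintiles of genes where 42.8% and 44.3% had an E14 peak. Their wild-type input had a median of 26.0 RPM per kb, in the highest quintile, where 41.3% of genes had an E14 peak. The part of length, fold and input in the share was not tested. The highest E14 fold of the naive pluripotency genes had a median of 4.17, against 6.61 over all genes with both peaks. Over the latter, wild-type input had a median of 3.85 RPM per kb, and the part of input in this difference was not tested. Sox2, a core transcription factor of the network, had 1 E14 peak of 126 bp and 1.57-fold inside a wild-type peak of 2268 bp and 36.8-fold. Klf4 had 3 E14 peaks of 1.59- to 3.68-fold in 1 wild-type peak of 39.1-fold. Nanog had an E14 peak of 293 bp and 3-fold within a wild-type peak of 1645 bp and 7.4-fold. Esrrb, a nuclear receptor gene, had E14 peaks of 1.86- and 2.97-fold in a wild-type peak of 6.75-fold.

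The methylcytosine dioxygenase genes Tet1 and Tet2 were covered more fully. Tet1 had 10 E14 peaks that met 1 wild-type peak of 60-fold, among them the longest peak of the E14 list, 9084 bp at 9.92-fold. Tet2 had 9, of up to 7.46-fold, on 1 wild-type peak of 57.5-fold. Rif1 had 21 on a wild-type peak of 43-fold. Gbx2, Prdm14, Stat3, Klf2 and Dppa4 had wild-type peaks alone, with highest folds of 2.5, 4, 6.5, 9.44 and 3.67. LIF, FGF and Wnt pathway genes gave 12 of 19 (63.2%). Apc, a scaffold of β-catenin breakdown, had the highest wild-type fold among them, 66.5 on 1 peak that met 6 E14 peaks, and the Wnt co-receptor gene Lrp6 had 13 E14 peaks. Ctnnb1, Gsk3b, Jak1 and Socs3 were among the 7 without an E14 peak.

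Developmental and other cell type lists gave few members. Of 9 primed pluripotency and germ layer genes with a wild-type peak, Nes and Nodal had an E14 peak, and Otx2, Eomes, Sox1, Zic2, Lefty2 and Dnmt3b were among those that did not. For trophectoderm and primitive endoderm it was 2 of 6, the laminin genes Lama1 and Lamc1. For endothelial, blood and epithelial markers it was 2 of 5, Cdh1 and Pecam1. These counts are too small to set against 32.7%.

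Lists of chromatin regulators gave shares from 56.0% to 89.3%. Of 28 SWI/SNF, CHD and bromodomain genes with a wild-type peak, 25 had an E14 peak (89.3%, 72.8 to 96.3). Their median exonic length under wild-type peaks was 5354 bp, which falls in the highest quintile of genes, where 71.1% had an E14 peak. Their highest wild-type fold had a median of 17, in the highest quintile by fold, where 77.5% of genes had an E14 peak. Bptf and Pbrm1, remodelling subunits, had 15 and 16 E14 peaks, all found. Arid1a had 5 on 1 wild-type peak of 39.5-fold. Histone methyltransferases and demethylases gave 20 of 31 (64.5%, median 4809 bp), with Kmt2a at 16 E14 peaks on 1 wild-type peak of 46-fold, Setd2 at 9 and Nsd1 at 15. Polycomb genes gave 14 of 25 (56.0%, median 2775 bp). Suz12, a core subunit of the methylating complex, had 11 E14 peaks, while Cbx2, Cbx6 and Cbx8 had wild-type peaks alone. KRAB and other zinc finger genes gave 25 of 30 (83.3%, median 5249.5 bp). Median highest wild-type folds were 13.3 for the histone list, 9.6 for Polycomb and 22.45 for zinc finger genes. The part of exonic length and of fold in these shares was not tested.

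Genes of the m6A machinery carried peaks in both lists. Of 18 with a wild-type peak, 12 had an E14 peak (66.7%, 43.8 to 83.7). Among the writer's partners, Zc3h13 had 7 E14 peaks of up to 11.2-fold, Rbm15 had 3 and Cbll1 had 1, each beside wild-type peaks of 30.7-, 21.7- and 12.5-fold. Wtap had 3 E14 peaks, of which 2 met a wild-type peak. Its highest wild-type peak, of 19.8-fold, was not found. The reader gene Ythdf3 had 2 E14 peaks of up to 10.3-fold on a wild-type peak of 26.2-fold, whereas Ythdf1 and Ythdf2 had wild-type peaks of 11.5- and 16.1-fold alone. The erasers Fto and Alkbh5 had wild-type peaks alone too. Mettl3 and Mettl14, which form the catalytic core, had no wild-type peak and no E14 peak on their listed blocks of 550 and 975 bp.

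Nearly all long noncoding RNAs with a wild-type peak had an E14 peak. The count was 11 of 12 (91.7%, 64.6 to 98.5), at a median exonic length of 1644.5 bp. That length falls in a quintile of genes where 26.5% had an E14 peak. Their highest wild-type fold had a median of 18.6, in the highest quintile by fold, where 77.5% of genes had one. The part of length and fold in the share was not tested. Malat1, a nuclear RNA, had a single peak in each list over almost the same stretch, 6375 bp at 5.89-fold in E14 and 6285 bp at 34.8-fold in wild-type. Tug1 had 4 E14 peaks, 3 of them found, of 27.7-, 20.6- and 10.3-fold, on wild-type peaks of 57.3- and 57.5-fold. Rian, an imprinted RNA, had 9 E14 peaks of up to 35.9-fold on 1 wild-type peak of 42.7-fold. Neat1 had 15 wild-type peaks, of which 2 met its 3 E14 peaks. Kcnq1ot1, Meg3 and Snhg1 had E14 peaks alone, none of them meeting a wild-type peak, with highest folds of 7.19, 3.44 and 6.61. All 7 imprinted protein-coding genes with a wild-type peak had an E14 peak. In Nnat, the E14 peak of 14.2-fold and the wild-type peak of 3-fold did not meet, and in the other 6, Igf2r and Peg10 among them, they did.

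Housekeeping genes had short wild-type peaks. Of 22 cytosolic ribosomal protein genes with a wild-type peak, 7 had an E14 peak (31.8%, 16.4 to 52.7), close to the 32.7% of all genes. Their median exonic length under wild-type peaks was 415 bp and their median highest fold 2.5. Rpl3 had 3 E14 peaks of up to 12.6-fold, all found, beside wild-type peaks of 1.8- and 3.12-fold. Of the respiratory chain genes, 24 of 32 had a position, 3 had a wild-type peak and none an E14 peak. Among immediate early genes, 1 of 9 had both, Klf6, and Jun, Jund, Dusp1, Egr1, Ier2, Ier5, Btg2 and Nr4a1 had wild-type peaks alone. Cell cycle genes gave 11 of 25 (44.0%). The long mitotic genes Cenpe, Cenpf, Top2a and Mki67 had 16, 10, 13 and 7 E14 peaks, while Ccna2, Ccnb1, Aurka, Aurkb and Plk1 had wild-type peaks alone. In the cadherin superfamily, 5 of 9 had both, with 25 E14 peaks on Fat1. Interferon response genes gave 1 of 4, Adar, and X-inactivation and Y-linked genes 5 of 7, with 18 E14 peaks on Usp9x.

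**Figure D4:**
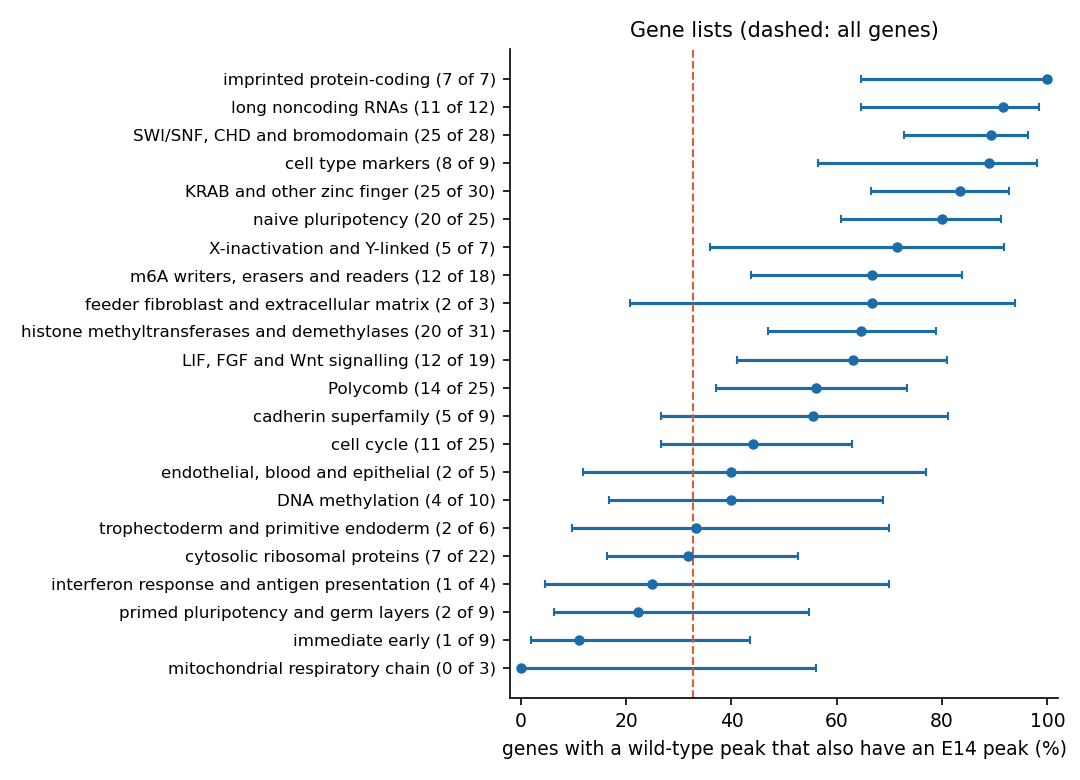
Share of genes with a wild-type peak that also had an E14 peak (x axis, %), for each gene list (y axis, counts in brackets), with Wilson 95% intervals as bars. The dashed line is the 32.7% of all genes with a wild-type peak. Most lists lie to its right, among them noncoding RNA, imprinted, chromatin, zinc finger, naive pluripotency, m6A and signalling genes. Ribosomal protein genes lie on it, and primed pluripotency, interferon, immediate early and respiratory chain genes to its left.

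Genes with an E14 peak alone had mostly 1 short peak each. Over the 124 the median was 1 E14 peak, and the highest fold had a median of 6.33, near the 6.61 of genes with both. The 8 of highest fold each had 1 peak, none of which was found. Zfp608, a zinc finger gene, had 78.1-fold over 100 bp. Its listed blocks come to 400 bp and had a wild-type input of 777 RPM per kb, against a median of 2.37 over the 124 genes. Mroh6, D130009I18Rik and Tmco4 had 27.8-, 26.7- and 26.3-fold over 185, 100 and 183 bp. Arl4c, Tmtc2 and Nbea had 25.9-, 24.8- and 22.5-fold over 184, 181 and 194 bp. Fgf2, a growth factor gene, had 18.98-fold over 357 bp. Of the 8 peaks, 2 were thus 100 bp long and 4 fell in the band of 176 to 186 bp.

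Genes with a wild-type peak alone included some of high fold. Gm20716 headed them at 70-fold, but its peak shares exons with Adnp and met the E14 peak that was named for Adnp. Rnf139, a ubiquitin ligase gene, had 2249 bp at 40-fold and Ckap4 2174 bp at 36.9-fold. Irf2bp2 and Zfp462, both transcriptional regulator genes, had 35.8- and 34-fold, the latter over 11 exon blocks. Mfap3 and Mogs had 31.3-fold each and Lrrc8a 30.7-fold. Apart from Gm20716, no peak of these 8 genes met an E14 peak.

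The other lists separated found from not found peaks, a readout the comparison did not use, though scored by the same overlap of 1 bp. E14 peaks that wild-type lacked recurred more often in the E14 lists from fewer nuclei, 53.7% against 22.1% in the 25K list and 44.7% against 18.3% in the 5K list. In the EPSC list the shares were close, 62.2% against 70.8%, and in the MEF list they turned around, 26.2% against 74.3%. Many of these peaks recurred to the base: 34.5% of E14 peaks not found had the very same start and end in the 25K list and 34.4% in the EPSC list. For found peaks the shares were 1.09% and 2.01%. E14 peaks not found also had a higher median fold than found ones, 7.48 against 5.52, and a higher median -log10 q, 22.7 against 16.6. The shares in these lists were not matched for fold, q or length. The 25K, 5K and EPSC lists come from E14 cells and the MEF list from CF1, so line and cell type change together there.

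Wild-type peaks that E14 lacked were also rarer in every other list. They were shorter than found ones, with medians of 250 against 1927 bp, and of lower fold, 3.5 against 11.4. Longer peaks offer more positions for an overlap of 1 bp in any list, and the shares below were not matched for length or fold. In the Mettl3 KO list, made with the same antibody and caller, 48.0% of them recurred, against 89.5% of found ones. In the EPSC list it was 10.6% against 79.3%, and in the MEF list 40.2% against 74.0%. At least 1 of the 4 MACS2 lists held 45.0% of them and 92.0% of the found ones. The MEF list is the longest, with 38205 peaks against 12183 for EPSC.

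**Figure D5:**
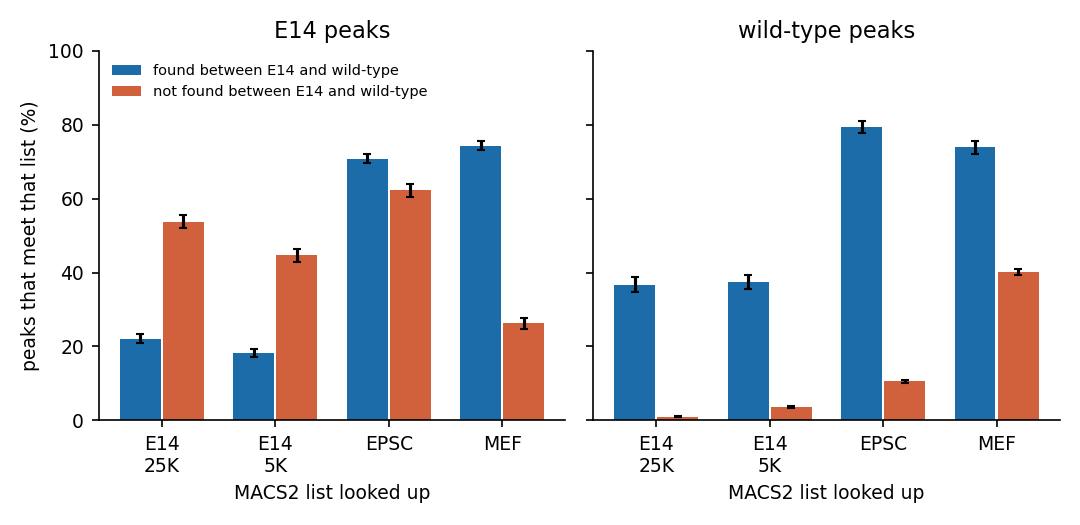
Share of E14 peaks (left) and wild-type peaks (right) that met each of the other MACS2 lists (y axis, %), for peaks found (blue) and not found (orange) between E14 and wild-type, with Wilson 95% intervals. For E14 peaks the order of the colours turns between the small E14 lists, where orange is higher at 53.7%, and MEF, where blue is higher at 74.3%.

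Reads in the C57BL/6 libraries gave a measure that peak calling in E14 did not touch. They are the reads behind the wild-type list too, so a higher ratio in regions with a wild-type peak is no separate finding. The exomePeak2 table holds RPM pooled by genotype for m6A-CT and input, with 39310394 wild-type m6A-CT reads and 45090626 input reads in all. Among its 28539 regions with at least 10 wild-type input reads, 2747 met both lists, 16217 wild-type alone, 165 E14 alone and 9410 neither. The median ratio of m6A-CT to input RPM was 7.44 (7.24 to 7.59) for both, 3.66 (3.61 to 3.71) for wild-type alone, 3.37 for E14 alone and 1.79 for neither. In regions over 300 and up to 1000 bp long the order of the first pair held, 6.98 against 3.18. As with the deciles of fold, which rest on the same libraries, the share of wild-type regions met by E14 climbed with this ratio, from 1.77% between 1 and 2 to 17.0% between 4 and 8 and 60.1% at 16 and above. Regions at 16 and above were longer, with a median of 875 bp, than those between 4 and 8, with 175 bp.

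Input level in wild-type moved less with the overlap. Among wild-type regions of that length, the share met by E14 was 13.9% in the lowest quintile of input per kb (10.9 to 17.6) and 17.5% (14.2 to 21.4) in the highest. The median ratio in those quintiles was 5.91 and 2.27, and the intervals of the shares overlapped.

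Among the regions that the authors' deposited table holds, most of those met by either list were lower in the Mettl3 KO. The authors' deposited table lists 89.2% of the 28539 regions as lower in Mettl3 KO (FDR under 0.05, log2 fold change under 0). It lists 10.8% as higher, so regions without a called change are nearly absent from it. The shares and medians below therefore describe selected regions, split by direction, and not all regions tested. By the authors' deposited table, the lower share was 96.8% in regions met by both lists and 95.01% with wild-type alone. The lower share was 94.5% (156 of 165) with E14 alone and 76.8% with neither. Median log2 fold changes in the authors' deposited table were -1.23, -1.25, -1.10 and -1.22. Median region lengths were 1100, 150, 500 and 125 bp in the same order. In regions over 300 and up to 1000 bp long, the lower share by the authors' deposited table was 92.05% with neither. There it lay between 94.1% and 98.98% in the other classes. The part of length was not tested. Wild-type peaks were called from the wild-type reads that the fold change uses, so a high lower share on them is no separate finding.

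Chromosomes differed in the share of E14 peaks that were found. The found share of E14 peaks was highest on chromosome 1, at 77.8% of 650, and 74.4% without Dst and Fn1, which carry 63 and 33 E14 peaks. It was lowest among autosomes on chromosomes 12, 13 and 5, at 51.3%, 52.7% and 53.3%. On listed exons alone the shares lay closer, at 96.75% on chromosome 1 and 94.0%, 91.7% and 90.1% on chromosomes 12, 13 and 5. Those blocks include the wild-type peaks, which holds these shares high. On chromosome 1, 523 of the 650 E14 peaks lay on a listed exon, and on chromosome 12, 167 of 306. The 17 E14 peaks on Y and 2 on the mitochondrial genome were not found, and the wild-type list held no peak there.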

How the data were processed

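Members, gene lists and the rule for named genes were chosen with earlier results of these data known. The submitters' processing notes name Trim Galore, STAR 2.7.2, MACS2 and the build mm9 without saying how each was used, and file names in the labels give MeTPeak and exomePeak2. Their settings, whether replicates were pooled and the depth of single E14 libraries are not given in the sources used here. In the deposited MACS2 lists the score is a whole number near 10 times -log10 q, the fold is a ratio at the summit, all peaks have -log10 q of at least 10, -log10 p and -log10 q are the caller's, and the summit offset is another column. In the deposited MeTPeak lists the score is a p-value, log10 of FDR stands beside it, fold is a ratio to input, and the block count gives the exon blocks. In the deposited exomePeak2 table RPM values are whole multiples of 1 read within 0.01 reads for 100% of values; these reads are pooled per genotype, so a count test had no replicates and was not run. The deposited log2 fold change compares Mettl3 KO with wild-type.

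Overlap (1 bp, strand not used), Wilson intervals and medians were computed in Python 3.11.15 with pandas and SciPy and tested on simulated data. E14 peaks took the gene with most shared bp among exon blocks of the 3 C57BL/6 files. Of 217 regions named for several genes, 171 went to the member with most exonic bp of its own, a step added after joint names were seen. A RefSeq table (GRCm38.p6) served for symbols alone and matched 11037 of 11200 names. Named genes were the 8 of highest fold in each class, up to 5 and 3 members per list by wild-type and E14 fold, 11 genes named outright such as Nanog and Mettl3, those of the 5 strongest peaks of each list that could be named, and genes singled out after their values were seen (Macf1, Hspg2, Dst, Wasf3, Cdk8 and list members named without being in that order). No genome of build mm9 was used, so no sequence is shown and introns were not told from intergenic stretches. PCR reads lack molecular identifiers, so intervals cover counting error only. Some genes that meet the rule for named genes are not reported here.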

Additional observations from a re-analysis of the deposited data

How the results depend on the processing

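Over all comparisons 16 other settings were tried, 9 or 12 for each. With 50% of the looked-up peak shared, 56.2% of E14 and 3.41% of wild-type peaks were found, and with 50% of both, 4.57% and 1.85%; the summit rule gave 58.6% and the whole span 65.5%. Restricting E14 to -log10 q of at least 20 gave 52.0% and 5.02%, wild-type to 5-fold 58.4% and 30.6%, to log10 FDR of -5 or less 32.7% and 10.9%, and to the 8052 of highest fold 59.2% and 26.7%. Without 100 bp peaks 66.9% of E14 peaks were found, on listed exons 93.8%, and in genes with an E14 peak 40.3% of wild-type peaks. The 25K list gave 42.4% and 5.26%, the 5K list 46.4% and 7.70%.

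Genes in both numbered 888 at -log10 q 20, 855 at log10 FDR -5 and 958 with the 25K list. Genes in E14 alone numbered 63 at -log10 q 20, 242 at 5-fold, 1175 at log10 FDR -5, 196 with the shortened list and 34 by MeTPeak naming; wild-type alone fell to 2431 at 5-fold and 1796 at log10 FDR -5.

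The length ratio of found to not found E14 peaks was 3.797 at 50% of both, 2.16 at -log10 q 20 and 1.40 at log10 FDR -5. For wild-type it was 4.35 and 3.51 in the 50% settings, 9.14 at -log10 q 20, 2.95 at 5-fold, 8.68 at log10 FDR -5 and 3.31 with the shortened list. The fold ratio of E14 peaks turned to 1.09 at 50% of both, and was 0.615 at -log10 q 20, 0.830 at log10 FDR -5 and 0.872 on listed exons. For wild-type it was 3.73 and 3.38 in the 50% settings, 4.58 at -log10 q 20, 1.97 at 5-fold, 3.4 at log10 FDR -5, 2.08 with the shortened list and 3.07 in genes with an E14 peak. In every other setting tried these ratios kept their direction; the causes of the changes were not tested.

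No paired analysis was possible because each line has 1 list without replicate values, and leaving out a library was not possible for the same reason. Fold and log10 FDR were nearly unrelated over wild-type peaks (Spearman correlation 0.03), so the 2 strict wild-type settings keep different peaks.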
